A study of Mus musculus with 6 samples.

Results

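The 9 genes described here are F3, F5, F2rl1, Procr, Thbd, Proz, Plau, Plaur and Plat. They encode proteins that start, restrain or dissolve blood clots or, for F2rl1, a receptor that proteases open. They were taken from the deposited counts by symbol, 9 of 24786 rows, and were chosen by their measured levels in tyramine against control libraries. Their values for that difference are therefore a description and carry no test. The 6 RNA libraries came from wild-type (WT) mouse intestinal organoids, epithelial cultures that have neither blood vessels nor blood. The organoids were taken apart into single cells over 10 min, after which 3 cultures received 100 µM tyramine, an amine that bacteria make from tyrosine, for 16 h, and 3 served as controls. The control titles say DMSO and the series design says control medium; no source used here tells if the tyramine cultures held DMSO too. No label gives a strain, an age or the animals behind the cultures, so the spread between replicates may be technical.

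Clotting begins when tissue factor, the product of F3, meets factor VII outside the vessel. The cascade that follows makes thrombin, with factor V as a cofactor of the step before it. Thrombin bound to thrombomodulin (Thbd) activates protein C, which the endothelial protein C receptor (Procr) presents, and activated protein C cuts factor V. Protein Z (Proz) helps an inhibitor to block factor X. Urokinase (Plau), held at the cell surface by its receptor Plaur, and tissue plasminogen activator (Plat) turn plasminogen into plasmin, which dissolves fibrin. In the gut epithelium proteases can also act as signals. One receptor for them is protease-activated receptor 2 (F2rl1), which trypsin-like enzymes open by cutting its outer end.

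Library totals ran from 28316372 to 35035955 counts. Tyramine replicate 3 stood apart from the other tyramine libraries on the second principal component of log2 CPM (counts scaled to a common library size with TMM factors), which took 19.3% of the variance, at 82.2 against -37.5 and -76.6. The controls lay between 9.496 and 11.3. The 10 epithelial markers were detected in every library and summed to between 20170 and 21730 CPM in controls and between 17940 and 20240 CPM with tyramine, with Krt8 and Krt20 the most abundant. Within that list Vil1, a microvillus protein of absorptive cells, measured 2160, 2277 and 2130 CPM in controls and 979, 849 and 617 CPM with tyramine, and the intestinal transcription factor Cdx2 measured 23.4, 20.7 and 17.5 CPM and 6.42, 5.10 and 6.27 CPM. Epcam, Krt19, Cldn7 and Cdx1 were also lower in every tyramine library than in any control, Cdh1 and Krt18 were higher in every one, and Krt8 and Krt20 overlapped. A set of 10 haematopoietic markers, of which Tyrobp, Cd79a and S100a8 were at 0 in all libraries, summed to between 5.02 and 8.17 CPM in controls and between 5.41 and 9.57 CPM with tyramine. The sums of 10 markers of fibroblasts and smooth muscle did not overlap, at 21.0 to 21.9 CPM in controls and 23.8 to 31.2 CPM with tyramine. The most abundant was Myh11, at 9.71, 9.21 and 9.23 CPM in controls and 16.7, 12.7 and 20.15 CPM with tyramine. Col3a1 was also higher in every tyramine library, Col1a1 and Pdgfrb were lower in every one, and the others overlapped. Sums of 6 platelet markers did not overlap either, at 1.37 to 2.56 CPM in controls and 0.696 to 1.02 CPM with tyramine. Among these, Pf4, Ppbp, Gp9 and Gp6 were at 0 in all 6 libraries. The part of such cells in the results was not tested.

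**Figure D1:**
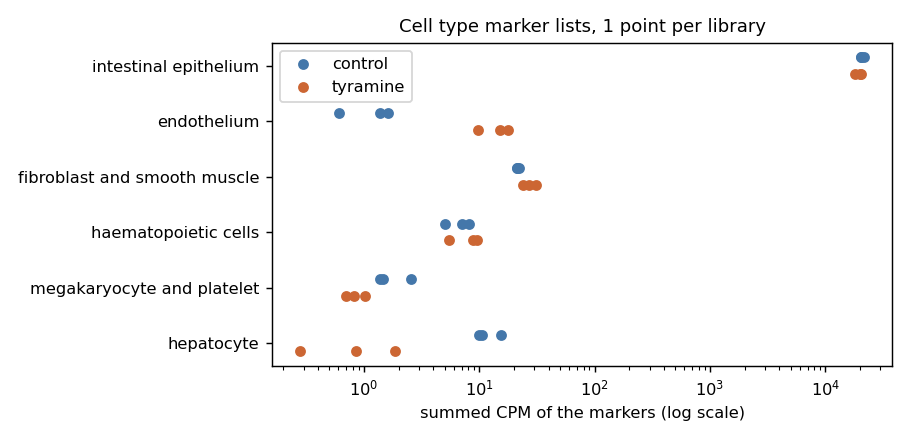
Summed CPM of 6 marker lists in each library, on a log axis, with 1 point per library. Epithelial markers lie between 17940 and 21730 CPM in both groups, endothelial and fibroblast sums lie higher and hepatocyte and platelet sums lower in all tyramine libraries, and haematopoietic sums overlap.

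Promoter sequences from RefSeq (GRCm38.p6) matched 5 of the 9 genes: F3, F5, Procr, Proz and Plaur. They are shown for 3 genes that were higher with tyramine and for Proz, which had 0 counts there, to set the bases ahead of their transcription starts side by side. Each runs 5′ to 3′ on the plus strand, covers the 250 bases before the RefSeq start and ends where the GENCODE M21 gene begins if that comes first, which shortens Procr to 150 bases. Capitals mark TGANTCA, the motif of AP-1 transcription factors, where N is any base.
Procr, chr2:155750967-155751116: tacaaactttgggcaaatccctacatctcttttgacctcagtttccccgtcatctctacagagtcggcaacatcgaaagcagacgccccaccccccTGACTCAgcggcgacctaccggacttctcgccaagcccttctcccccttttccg
F3, chr3:121723287-121723536: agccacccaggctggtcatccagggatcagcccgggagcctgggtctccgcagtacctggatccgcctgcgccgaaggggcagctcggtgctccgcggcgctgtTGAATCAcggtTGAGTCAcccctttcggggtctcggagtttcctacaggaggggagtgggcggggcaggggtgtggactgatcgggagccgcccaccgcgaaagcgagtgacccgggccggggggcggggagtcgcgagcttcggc
Plaur, chr7:24462233-24462482: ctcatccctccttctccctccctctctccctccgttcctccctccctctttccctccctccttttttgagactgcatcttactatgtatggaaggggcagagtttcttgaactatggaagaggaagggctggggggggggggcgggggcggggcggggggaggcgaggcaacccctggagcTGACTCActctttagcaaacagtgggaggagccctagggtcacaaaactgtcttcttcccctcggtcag
Proz, chr8:13060658-13060907: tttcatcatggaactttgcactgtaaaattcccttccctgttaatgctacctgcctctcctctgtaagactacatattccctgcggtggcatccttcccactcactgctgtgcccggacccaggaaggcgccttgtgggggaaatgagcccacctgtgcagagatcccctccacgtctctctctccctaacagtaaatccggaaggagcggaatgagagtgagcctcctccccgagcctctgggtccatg
TGANTCA was searched on both strands of the 250 bases before each RefSeq start. Procr held it 1 time, from 154 to 148 bases before the start, as TGACTCA. Plaur held the same letters from 69 to 63 bases before the start, and F3 held TGAATCA from 146 to 140 and TGAGTCA from 135 to 129 bases before it. In F5 and Proz those letters were not in the window. Among all 32851 RefSeq promoters, 6.75% held the motif. Of the promoters matched to tested genes it was in 6.10% of those that rose, 6.24% of those that fell and 4.07% of those that passed in neither direction.

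The Procr match also falls inside TGACNNNGC, the core of the antioxidant response element, which was present in 10.2% of all promoters and in none of the other 4 windows. Counted per promoter entry, that core was in 224 of 1491 promoters of rising genes, 157 of 1587 of falling genes and 1056 of 9013 of other tested genes. GGGCGG, the GC box, occurred 3 times each in F3 and Plaur and 1 time in F5. It was in 32.7% of all promoters and, among those of tested genes, in 63.8% of rising, 52.1% of falling and 56.9% of other genes. CATTCC, the motif of TEAD factors, was found 1 time each in F5 and Proz, against 12.6% of promoters. TATAAA, CAAAGTCCA (bound by HNF4) and the NF-kB motif were in none of the 5 windows, and in 12.4%, 0.384% and 7.25% of all promoters. GC content of the 250 bases was 70.0% for F3, 61.6% for Procr, 59.6% for Plaur, 57.2% for F5 and 55.2% for Proz. Over all promoters, those of genes not tested here included, the median was 52.4% and the quartiles were 45.2% and 61.2%. A match describes letters in a window, not binding.

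F3, the trigger of clotting, lies on GRCm38 chromosome 3 from 121723537 to 121735048, plus strand. It measured 71.3, 74.3 and 66.2 CPM in control replicates 1 to 3 and 189, 171 and 139.9 CPM in tyramine replicates 1 to 3. Every tyramine library was above every control, with the smallest gap to tyramine replicate 3. The means were 70.6 ± 4.10 CPM in controls and 167 ± 24.8 CPM with tyramine (SD, n = 3 each), a log2 fold change of 1.24 (SE 0.14), or 2.36-fold. F5, which encodes factor V (chromosome 1, 164151838 to 164220277, plus strand), was scarce: 32, 17 and 39 counts in controls and 1, 2 and 49 counts with tyramine. Tyramine replicate 3 was the highest of all 6 libraries for F5 and the other tyramine libraries were the lowest, so the groups overlapped. The control mean was 0.963 ± 0.458 CPM and the tyramine mean 0.601 ± 0.956 CPM, which became 0.0491 CPM without tyramine replicate 3. The log2 fold change of F5, -0.68 (SE 1.47), became -4.18 without that library. The exons of F5 share 262 bases with Gm16548 on the other strand, and no source used here states if strand was used in counting.

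F2rl1, the receptor that proteases open (chromosome 13, 95511732 to 95525227, minus strand), measured 21.4, 15.3 and 23.5 CPM in controls and 53.5, 30.7 and 40.3 CPM with tyramine. The groups did not overlap, and tyramine replicate 2 came closest to the controls. The mean went from 20.1 ± 4.25 to 41.5 ± 11.4 CPM (SD, n = 3 each), with a log2 fold change of 1.05 (SE 0.27), or 2.07-fold. The other receptors of the family, F2r, F2rl2 and F2rl3, had too few counts to be tested, and F2rl2 and F2rl3 were at 0 in all 6 libraries. F2rl1 was therefore the only protease-activated receptor with enough counts to be tested in these organoids.

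Procr encodes the protein C receptor (chromosome 2, 155751117 to 155755471, plus strand). Control replicates 1 to 3 held 0, 9 and 0 counts of it. With tyramine it had 2113, 1771 and 2152 counts, or 74.6, 55.7 and 74.9 CPM. It was thus close to or at 0 in all controls and well measured in all tyramine libraries, where its mean was 68.4 ± 11 CPM (SD, n = 3). The ratio of pooled counts was 720, with an exact 95% interval of 379 to 1575 for counting error only, and it rests on the 9 counts of control replicate 2. Without that library the controls were at 0, and tyramine was at least 671-fold higher against a floor of 3 counts per library. Thbd, the partner of Procr in protein C activation (chromosome 2, 148404466 to 148408188, minus strand), had 2 counts, both in control replicate 2, and 0 elsewhere. Both groups lay at or under the floor for Thbd, so no fold is given, and Procr was high in libraries where Thbd was not detectable at this depth.

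Procr is best known from endothelium. A set of 10 endothelial markers summed to between 0.603 and 1.61 CPM in controls and between 9.78 and 17.7 CPM with tyramine. Most of that came from Esam, an adhesion gene, which went from 9, 6 and 20 counts in the control libraries to 199, 464 and 424. No other marker of the list was higher in every tyramine library than in any control. Most Tek reads came from the libraries numbered 1, with 26 counts in the control and 62 in the tyramine library against at most 2 elsewhere, and Tie1 had 74 counts in tyramine replicate 2 and at most 2 in any other library. The remaining 7 markers of the list had at most 18 counts in a library: 18 of Pecam1, 6 of Kdr, 6 of Vwf, 4 of Cdh5, 4 of Flt1, 2 of Emcn and 2 of Erg. The part of endothelial cells in the Procr values was not tested.

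Proz, a plasma protein without protease activity (chromosome 8, 13060914 to 13076026, plus strand), went the other way. Its counts were 324, 623 and 360 in controls, or 10.7, 17.1 and 12.6 CPM, and 0 in all 3 tyramine libraries. No tyramine library held a Proz count, and every control held at least 324. The control mean of 13.5 ± 3.29 CPM (SD, n = 3) makes Proz at least 132.5-fold lower with tyramine against the floor of 3 counts per library, and at least 115-fold to at least 146-fold with any 1 library left out. Serpina10, the inhibitor that protein Z serves, was at 0 in all libraries. Protein Z is made mainly by liver, and 8 hepatocyte markers also summed lower with tyramine, between 0.279 and 1.87 CPM against 9.93 to 15.3 CPM in controls. Ttr, which hormone-making gut cells also express, made up most of that sum, at 442, 282 and 224 control counts against 25, 25 and 8. Alb had 6, 0 and 43 control counts and 0 in the tyramine group, and Ahsg and Fgb were at 0 in all libraries. The part of such cells in the Proz values was not tested, and in bulk RNA fewer cells of a type cannot be told apart from less RNA per cell.

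Of the plasminogen genes, the urokinase receptor gene Plaur (chromosome 7, 24462484 to 24475968, plus strand) measured 45.2, 38.6 and 34.4 CPM in controls and 123, 134 and 197 CPM with tyramine. The lowest tyramine library was far above the highest control, and tyramine replicate 3 was the highest. The mean went from 39.4 ± 5.47 to 151 ± 39.9 CPM (SD, n = 3 each), with a log2 fold change of 1.94 (SE 0.20), or 3.84-fold. Plat, tissue plasminogen activator (chromosome 8, 22757727 to 22782844, plus strand), measured 31.2, 27.5 and 21.8 CPM in controls and 64.2, 68.7 and 78.0 CPM with tyramine. Its groups did not overlap and its tyramine libraries lay close together. The mean went from 26.9 ± 4.74 to 70.3 ± 7.004 CPM (SD, n = 3 each), with a log2 fold change of 1.39 (SE 0.19), or 2.62-fold.

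Plau, the urokinase that Plaur binds (chromosome 14, 20836660 to 20843385, plus strand), was unevenly detected, at 45, 6 and 6 counts in the control group and 2, 4 and 107 counts in the tyramine group. In each group 1 library held most of the counts, so the groups overlapped and Plau did not have enough counts in enough libraries to be tested. The means were 0.619 ± 0.747 CPM in controls and 1.31 ± 2.09 CPM with tyramine, and the tyramine mean was 0.0982 CPM without tyramine replicate 3. Plasminogen itself, Plg, was at 0 in all 6 libraries. The receptor and the tissue-type activator were thus measured in every library, with little RNA of urokinase and none detected of their substrate.

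**Figure D2:**
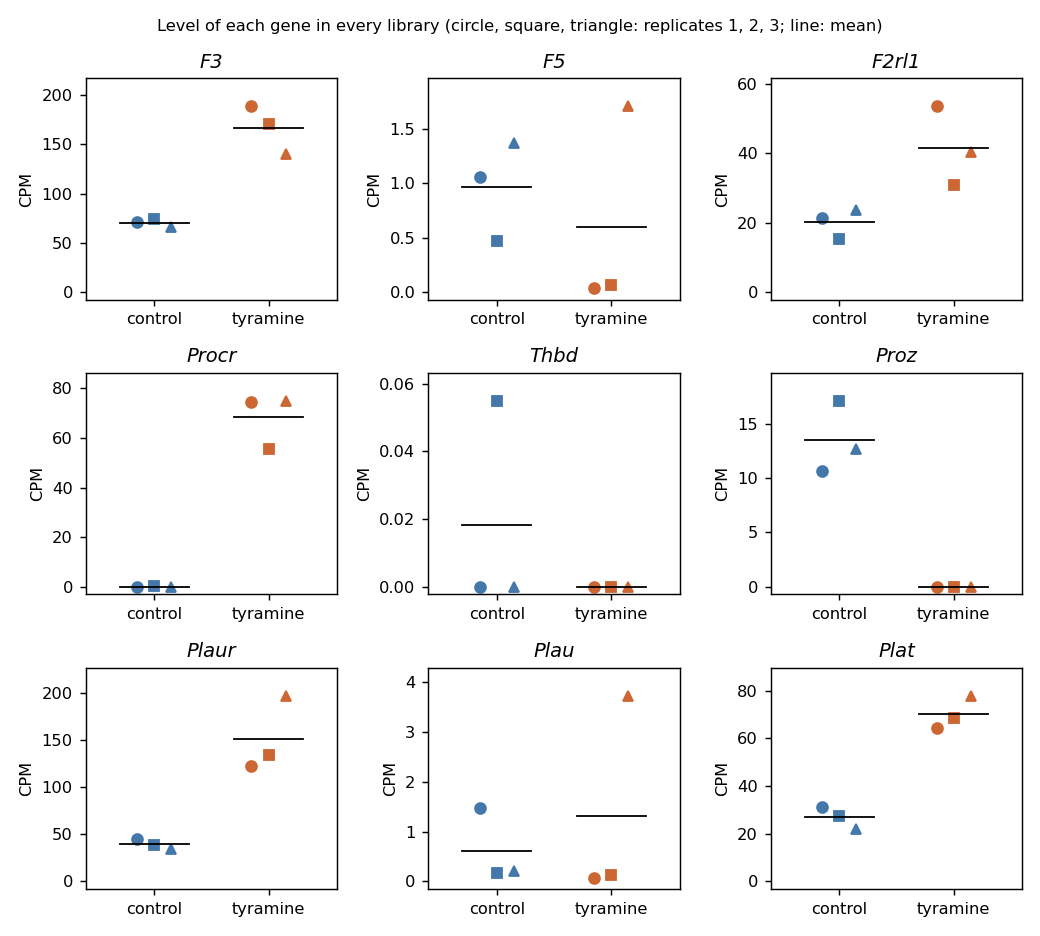
CPM of the 9 genes in each library, with a separate linear axis from 0 for each gene; symbols mark replicates 1, 2 and 3 and the line is the group mean. F3, F2rl1, Procr, Plaur and Plat lie higher in all 3 tyramine libraries, and Proz lies at 0 there. The tyramine means of F5 and Plau are carried by tyramine replicate 3.

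Of the 9 genes, 7 had enough counts to be tested, all but Thbd and Plau. By edgeR's quasi-likelihood test 5 passed as higher and 1 as lower with tyramine, where 12.5% and 13.3% of the 12139 tested genes did. Groups without overlap were found for the same 5 genes above the controls and for Proz below them, against 20.9% and 23.6% of tested genes. Because the 9 genes were picked with this difference known, nothing is read from those counts, and Procr and Proz could pass the filter on low counts only through the group in which they were high. F2rl1 lost its call when control replicate 1, control replicate 2 or tyramine replicate 1 was left out, with log2 fold changes of 0.83 to 1.23 over all 6 libraries left out in turn. Across those 6 fits the log2 fold change ran from 1.14 to 1.35 for F3, from 1.71 to 2.07 for Plaur and from 1.25 to 1.50 for Plat.

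**Figure D3:**
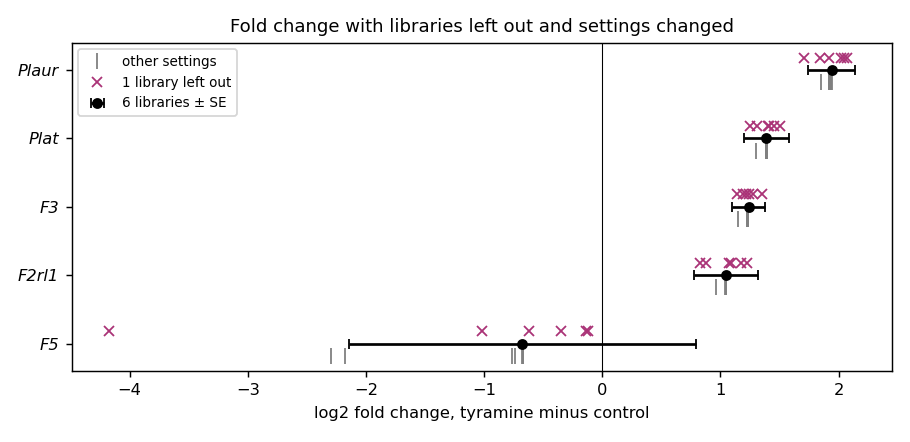
Log2 fold change (tyramine minus control) of the 5 tested genes whose mean CPM was above the floor in both groups. Black points with SE bars are from all 6 libraries, crosses have 1 library left out, and grey ticks are under other settings. Plaur, Plat, F3 and F2rl1 stay above 0 throughout, and F5 moves to -4.18 without tyramine replicate 3.

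Levels were set side by side after division by exon length, as CPM per kb of the gene's merged GENCODE M21 exons. These run from 2.03 kb for Procr to 7.43 kb for F5, with 5.55 kb for Proz and 6.24 kb for Plat. Merged exons can be longer than a single transcript, so the order of genes on this scale depends on that divisor. In controls the order of these levels was F3 at 27.9 ± 1.62, Plaur at 15.1 ± 2.09, F2rl1 at 7.33 ± 1.55, Plat at 4.30 ± 0.760 and Proz at 2.43 ± 0.592 CPM per kb (SD, n = 3 each). No neighbours among those 5 overlapped in their ranges on this scale. Plau (0.0695 to 0.626 CPM per kb) and F5 (0.0627 to 0.184 CPM per kb) came next and overlapped, followed by Procr, at 0.121 CPM per kb in control replicate 2 and 0 in the other controls, and Thbd, at 0.0147 CPM per kb in that library.

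With tyramine F3 (65.9 ± 9.79 CPM per kb) and Plaur (57.8 ± 15.2 CPM per kb) led and could not be separated, with ranges of 55.4 to 74.7 and 46.9 to 75.2. Procr came next at 33.7 ± 5.41 CPM per kb, between 27.4 and 36.9, below both of them and above the rest without overlap. F2rl1 (11.2 to 19.5 CPM per kb) and Plat (10.3 to 12.5 CPM per kb) overlapped. The level of Procr with tyramine was thus above the highest control level of F3, 29.4 CPM per kb, in replicates 1 and 3 and below it in replicate 2.

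**Figure D4:**
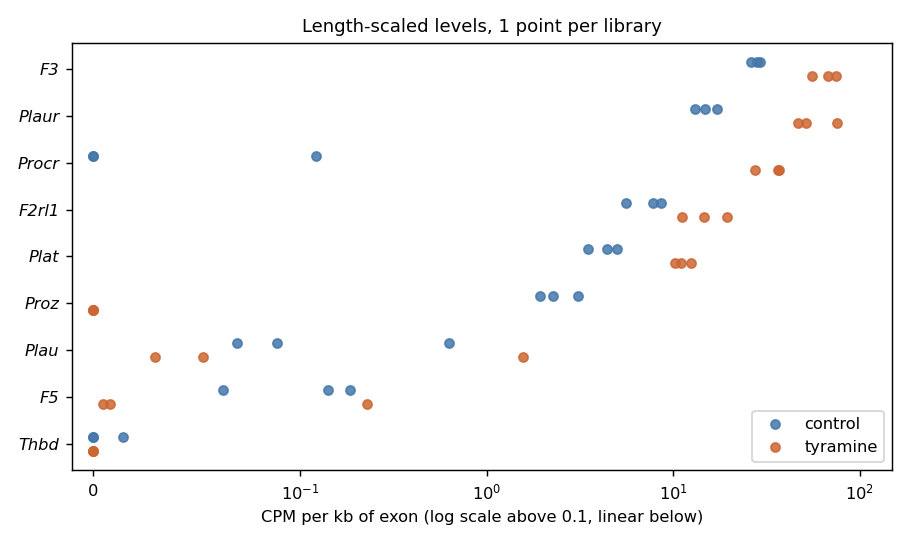
CPM per kb of exon for the 9 genes, 1 point per library, on an axis that is logarithmic above 0.1 and linear below. Procr moves from at most 0.121 in controls to between 27.4 and 36.9 with tyramine, next to F3 and Plaur, while Proz moves from between 1.92 and 3.08 to 0.

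Relative spread between replicates (SD as a share of the mean CPM) was 5.80% for F3, 13.9% for Plaur, 17.7% for Plat and 21.2% for F2rl1 in controls. With tyramine it was 9.96% for Plat, 14.9% for F3, 16.1% for Procr, 26.4% for Plaur and 27.6% for F2rl1. Plau and F5 spread by 160% and 159% with tyramine, both through replicate 3. That library was the lowest of the tyramine group for F3 and the highest for Plaur, Plat, Plau and F5, so the genes did not share 1 order over the tyramine libraries.

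By the root mean square difference of log2 CPM over the 6 libraries, after each gene was centred on its own mean, the tested gene nearest to Procr was Krt6a (0.468), followed by Krt6b (1.05) and Plet1 (1.07). Krt6a measured 0.560, 1.26 and 0.210 CPM in controls and 340.1, 316 and 619 CPM with tyramine. The nearest to Proz were Slc6a19 (0.200), Dscc1 (0.208) and Rad54l (0.217), all at 0 in every tyramine library and between 10.8 and 18.3 CPM in controls. The nearest to F3 were Ugt2b35 (0.0752), Psmb3 (0.0764) and Sfn (0.0957); Ugt2b35 measured 53.4, 55.1 and 49.2 CPM in controls and 132, 139 and 113 CPM with tyramine. This likeness follows the same difference between groups and is a description.

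The rest of the pathway was read from 5 lists of 88 genes besides the 9, drawn up with earlier results of these data known. These genes were tested by edgeR with Benjamini-Hochberg adjustment over all tested genes. Of the 88 genes, 26 had no count in any library and 38 were tested, of which 15.8% rose (6 genes), 18.4% fell (7 genes) and 25 did not pass. Over all tested genes 12.5% rose and 13.3% fell. The median log2 fold change was -0.027 for the 38 genes and 0.0041 for all tested genes. With library totals as the only scaling, 4 genes rose and 8 fell.

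Among 21 other clotting factors and proteins that mature them, 6 were tested, 1 rose and 1 fell, and their median log2 fold change was -0.37. Lman1, a cargo receptor that carries factors V and VIII out of the endoplasmic reticulum, measured 213, 206, 223 CPM in controls and 266, 298, 361 CPM with tyramine (log2 fold change 0.53, SE 0.12; edgeR adjusted p = 0.0108). Its groups did not overlap, and its call was lost without control replicate 1 or 2. Its partner Mcfd2 measured 101 ± 10.2 and 77.4 ± 12.2 CPM (edgeR adjusted p = 0.102). Vkorc1, which recycles the vitamin K that clotting factors need, fell from 59, 65 and 147 counts to 5, 2 and 2 counts (edgeR adjusted p = 0.0140), a pooled ratio of 28.1 with an exact 95% counting interval of 14.6 to 62.0. That call was lost without control replicate 3 and with limma-voom. Vkorc1l1, a relative of Vkorc1, was more abundant, with control means of 26.05 CPM against 2.96 CPM for Vkorc1. It measured 17.7 CPM with tyramine, lower in every tyramine library, and did not pass (edgeR adjusted p = 0.129). F9, F11, F13b, Fgb and Fgg, which make the plasma cascade and fibrin, were at 0 in all libraries.

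Of 11 other genes listed with anticoagulant proteins and inhibitors, Gas6 among them, 4 were tested by edgeR, 0 rose and 1 fell. Likewise 0 rose at an unadjusted edgeR p under 0.05, and 0 by DESeq2 or limma-voom. The median log2 fold change of the 4 tested genes was -0.0045. Tfpi, which encodes the inhibitor of tissue factor, went from 46, 64 and 46 control counts to 0, 0 and 2 (edgeR adjusted p = 0.0201), a pooled ratio of 72.7 with an exact 95% counting interval of 19.8 to 606. Both tyramine counts were in replicate 3, and without that library Tfpi was at least 16.3-fold lower against the floor of 3 counts per library. The fall of Tfpi lost its call when any 1 library other than tyramine replicate 3 was left out. F3, whose product Tfpi restrains, lay 2.36-fold higher in the same libraries. Gas6, Anxa5 and Hs3st1 were not past the threshold, with log2 fold changes of 0.44, 0.28 and -0.29. Proc, the gene of protein C itself, had 20, 0 and 11 control counts and 0 in the tyramine group, too few to test.

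Of 16 other genes of plasminogen activation 9 were tested, 1 rose and 1 fell, and their median log2 fold change was -0.05. Serpinb6a, an intracellular protease inhibitor, rose from 805 ± 37.7 to 1509 ± 39.8 CPM (SD, n = 3 each; log2 fold change 0.91, SE 0.08; edgeR adjusted p = 3.21e-05). It has close relatives in its family, so its counts are uncertain where reads are shared. Lrp1, a receptor that takes up many proteins from the cell surface, urokinase among them, measured 17.8, 24.3 and 15.7 CPM in controls and 4.66, 4.09 and 1.18 CPM with tyramine (log2 fold change -2.54, SE 0.52; edgeR adjusted p = 0.00555). Both calls held under all 14 alternatives. Of the surface genes that dock plasminogen, Anxa2 measured 1855 ± 77.0 and 1793 ± 101 CPM and S100a10 957 ± 84.5 and 1149 ± 104 CPM, and neither passed (edgeR adjusted p = 0.715 and 0.0796). Plgrkt, a plasminogen receptor, measured 85.7 ± 5.53 and 51.7 ± 22.4 CPM and did not pass (edgeR adjusted p = 0.0727).

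In the list of other protease-activated receptors, proteases that can open them and their inhibitors, 10 of 23 genes were tested, 2 rose and 3 fell, and their median log2 fold change was 0.22. St14, which encodes matriptase, a surface protease of epithelia, rose from 252 ± 30.6 CPM to 331 ± 6.17 CPM (a log2 difference of 0.40, SE 0.11; edgeR adjusted p = 0.0229). Spint1, the inhibitor of matriptase, rose from 153 ± 20.9 CPM to 260.0 ± 28.02 CPM (a log2 difference of 0.77, SE 0.13; edgeR adjusted p = 0.0020). The rise of St14 was lost with library totals alone (edgeR adjusted p = 0.0617) and without control replicate 2 or 3 or tyramine replicate 1 or 2, whereas that of Spint1 held under all 14 alternatives. Tmprss4, a transmembrane serine protease, fell from 27.9 ± 1.62 to 10.6 ± 3.34 CPM (log2 fold change -1.40, SE 0.31; edgeR adjusted p = 0.00792). Arrb1, a beta-arrestin that binds activated receptors, fell from 69.6 ± 13.8 to 24.5 ± 10.9 CPM (log2 fold change -1.51, SE 0.33; edgeR adjusted p = 0.00868). Tmprss2, a related protease named here after its value was seen, fell less (log2 fold change -0.47; edgeR adjusted p = 0.0278) and lost its call without any 1 library except tyramine replicate 3. Trypsin genes Prss1, Prss2 and Prss3 were at 0 in all libraries.

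The last list held 17 matrix proteases, their inhibitors, and growth factors that such proteases act on, with the receptors of these factors. Of these genes 9 were tested, 2 rose and 1 fell, and their median log2 fold change was 0.17. Met, the receptor of hepatocyte growth factor, rose from 45.0 ± 2.92 CPM to 77.6 ± 14.5 CPM (a log2 difference of 0.79, SE 0.17; edgeR adjusted p = 0.00832), and its relative Mst1r rose from 14.6 ± 2.40 CPM to 25.2 ± 2.73 CPM (a log2 difference of 0.79, SE 0.26; edgeR adjusted p = 0.0478). Mst1r lost its call with library totals alone, with no filter on low counts and when any 1 library but tyramine replicate 2 was left out. The ligand genes Hgf and Mst1 were at 0 in all libraries. Mmp15, a membrane-bound matrix protease, fell from 47.0 ± 8.47 to 21.4 ± 7.55 CPM (log2 fold change -1.14, SE 0.29; edgeR adjusted p = 0.0173), a call lost without control replicate 1 or 2.

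**Figure D5:**
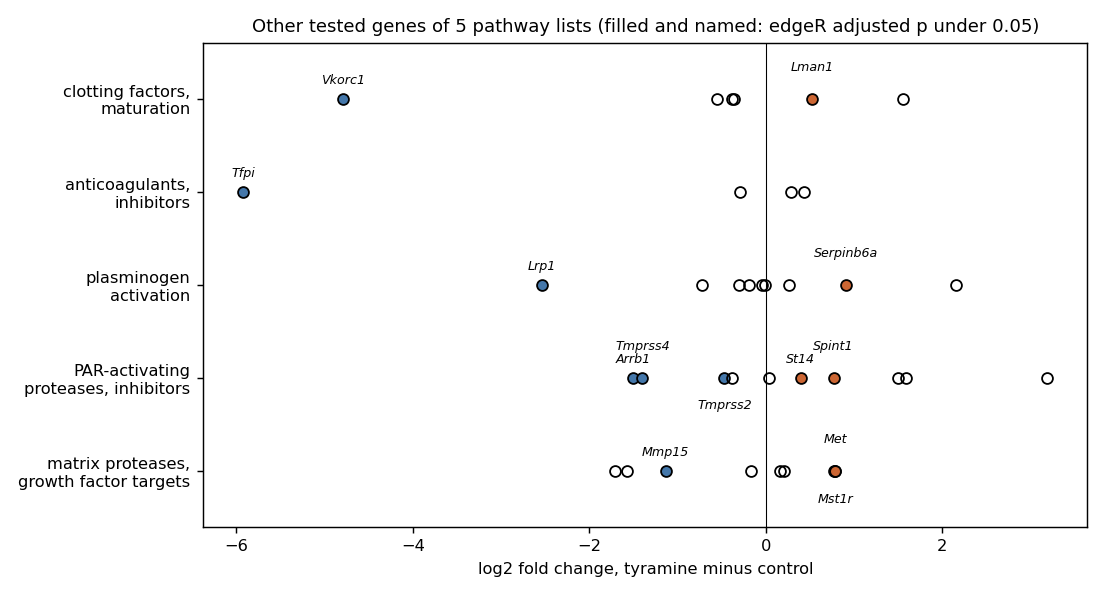
Log2 fold change (tyramine minus control) of the 38 other tested genes in 5 lists, 1 circle per gene; orange circles rose, blue circles fell and open circles were not past the threshold by edgeR's adjusted p. Genes past the threshold lie on both sides of 0 in 4 of the 5 lists, and Tfpi is the lowest of all.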

How the data were processed

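RNA from 6 organoid libraries was read as raw counts per gene symbol, whole numbers deposited by the authors in 1 column per library. Per the submitters' processing notes the aligner was STAR 2.5.3a and the build mm10. For the counting program, annotation, strand setting and use of molecular identifiers, the sources used here give nothing. Among values from 1 to 8, even numbers made up 72.6% to 78.7% per library, so a count may not be 1 molecule, and intervals and floors cover counting error only.

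Groups came from the titles. Genes passing filterByExpr (minimum count 10, minimum total 15) were fitted with edgeR 4.0.16 in R 4.3.3 (quasi-likelihood, robust, TMM factors 0.962 to 1.04, group only) with calls at p under 0.05 after Benjamini-Hochberg adjustment. Dividing the log2 fold change by the root of its F statistic gave the SE. The members and lists were chosen with earlier results of these data known. Named besides the members were up to 4 called genes per list by smallest p and the 3 genes most like Procr, Proz and F3. Other genes given with values, among them list members at 0 or not past the threshold and marker genes, were chosen after their values were seen. Gene positions and exon lengths are from GENCODE M21.

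On simulated counts for 12139 genes, tyramine against control, 6%, 36%, 68% and 70% of 50 genes changed by 1.5, 2, 4 and 8-fold were recovered, with 5 false calls among 11939 unchanged genes. Far fewer genes were changed there than the 3127 called in the data. The adjusted p threshold was therefore stricter in the simulation, and these shares do not estimate recovery in the data. Chi-square per degree of freedom between replicates was 27.0 to 102, so no library repeats another. Alternatives used DESeq2 1.42.0, limma 3.58.1 (voom), other size factors, library totals alone, other filters, a replicate block, halved counts and each library left out.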

Additional observations from a re-analysis of the deposited data

How the results depend on the processing

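None of the 14 alternatives reversed the direction of a called gene among the 9 or of a named pathway gene. Of 13 called pathway genes, 6 were called in every alternative that tested them (Serpinb6a, Lrp1, Tmprss4, Spint1, Arrb1 and Met). Leaving out 1 library at a time gave 934 to 1510 rising and 1035 to 1797 falling genes of all tested, against 1518 and 1609 with all libraries; without control replicate 1, 2 or 3 the falling genes were 1035, 1043 and 1055, and without control replicate 1 or 2 the rising genes were 960 and 934. For the pathway genes the same left 4 to 6 rising and 4 to 8 falling, with 4 falling without control replicate 2 or 3. By list, 0 to 1 clotting genes rose and 0 to 2 fell, 0 to 1 anticoagulant genes fell, 1 to 2 plasminogen genes rose and 1 to 2 fell, 1 to 2 receptor and protease genes rose, and 1 to 2 matrix genes rose and 0 to 2 fell. Matrix genes here means the whole list, growth factors and receptors included, whose 2 rising genes with all libraries were Met and Mst1r. With library totals alone 1 receptor and protease gene rose, 1 matrix gene rose and 2 fell. With DESeq2 2 plasminogen genes rose, 2 fell and 2 matrix genes fell, and limma-voom gave the same counts, with 0 clotting genes falling. The filter at a mean of 1 CPM removed Tfpi before testing, so the 0 anticoagulant genes falling there are not a lost call. Halved counts gave 2 matrix genes falling. The replicate numbers did not pair the libraries, since same-numbered libraries had correlated deviations from their group means of -0.0188, -0.0105 and 0.0109, and not every library correlated best with its own number. With the replicate block 1204 genes rose and 1390 fell, 5 pathway genes rose and 5 fell, 0 clotting genes and 0 anticoagulant genes fell, and 1 matrix gene rose; Vkorc1, Tfpi and Mst1r were not past the threshold there (edgeR adjusted p = 0.0518, 0.0522 and 0.0994). Fitted fold changes of Procr and Proz depend on the prior count and were not used as folds. The depth sets a floor of 0.0823 to 0.106 CPM per library, so Thbd in all libraries, and Plau and F5 in tyramine replicates 1 and 2, lie near what can be measured.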

Other observations

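Several list genes outside the comparisons above had large or uneven values, and were picked out after those values were seen. Mmp10, a matrix protease gene, had 0 counts in all 3 controls and 2, 345 and 248 counts in tyramine replicates 1 to 3. Prss8, the channel-activating protease prostasin, measured 1.38, 1.23 and 1.72 CPM in controls and 4.13, 4.78 and 4.18 CPM with tyramine, without overlap, and did not pass (edgeR adjusted p = 0.142). Mmp14, a membrane-type matrix protease, measured 8.08 ± 0.725 and 2.46 ± 1.22 CPM (edgeR adjusted p = 0.0539).

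F8, the factor VIII gene, had 22, 71 and 6 counts in controls and 3, 87 and 162 counts with tyramine (edgeR adjusted p = 0.455). Tfpi2, a relative of Tfpi, had 0, 47 and 40 control counts and 0 with tyramine. Like Plau and F5, these genes were high in some replicates of a group and near 0 in others.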
